A study of Malus domestica with 18 samples.

Results

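The cytokinin dehydrogenase family was followed in apple (Malus domestica cv. Húsvéti rozmaring) shoot explants held on 3 media for 48 hours or 4 weeks. Members were the genes whose Swiss-Prot name contains "Cytokinin dehydrogenase" and that reached 10 or more counts in 3 or more libraries. Of the 42841 genes in the count table, 11 carried the name and 9 met the count rule. The media held no cytokinin (control), 4.5 µM thidiazuron (TDZ) or 4.5 µM 6-benzylaminopurine riboside (BAR). Each of the 6 groups of medium and time had 3 libraries of axillary shoot RNA, 18 in all. Every medium, the control included, also contained 0.49 µM indole butyric acid (an auxin), 0.58 µM gibberellic acid and 3% sucrose. The 20 mm explants came from shoots last subcultured without cytokinin. The labels call the replicates biological without saying if each was its own culture, so the p-values below measure the spread between these libraries, which may be technical.

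Cytokinins are plant hormones that promote cell division and shoot growth. Cytokinin dehydrogenases (CKX) are flavin enzymes that inactivate them irreversibly by cutting the side chain from the adenine ring, and in many plants their genes are themselves induced by cytokinin. Natural isoprenoid cytokinins are the usual substrates, while aromatic ones such as benzyladenine and its riboside are poor substrates. TDZ is a phenylurea with no adenine ring, which binds cytokinin receptors and is known as an inhibitor of these enzymes rather than a substrate. In Arabidopsis the family members differ in where the protein resides, with CKX7 in the cytosol, CKX1 and CKX3 in the endomembrane system or vacuole, and several others carrying secretion signals. The apple genes are named here by the number in their Swiss-Prot protein name. The species of that protein is not given here, so the numbers need not be those of Arabidopsis. The enzymes these apple genes encode were not assayed.

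The 9 members were DVH24_029452 (CKX3), DVH24_012939 and DVH24_020176 (both CKX5), DVH24_020512 and DVH24_012708 (both CKX7), DVH24_018123 (CKX4), DVH24_006574 and DVH24_016042 (both CKX6) and DVH24_019643 (CKX1). Each carried the annotated FAD-binding domain and the domain that binds FAD and cytokinin. Their coding lengths ran from 1098 bases in DVH24_019643 to 2658 bases in DVH24_018123. The longest model, DVH24_018123, also carried the 2 domains of an RNA polymerase Rpb5 subunit, so its counts may belong in part to another transcript. Summed over the 18 libraries, member counts ran from 24079 in DVH24_029452 to 302 in DVH24_019643. DVH24_019643, the member with the fewest counts, had 10 or more in 7 libraries. Outside the count rule were DVH24_004947 (CKX1), with 63 counts in all and 10 or more in 2 libraries, and DVH24_029451 (CKX4), with 40 counts and 1 such library. DVH24_029451 lies 13.5 kb from DVH24_029452 on the same strand with 0 genes between them. Genes named CKX5 and CKX7 occur together on 2 sequences. DVH24_012939 and DVH24_012708 lie on the same sequence, 2130 kb apart, and DVH24_020176 and DVH24_020512 lie 3750 kb apart on another. Of these genes DVH24_012708 is on the minus strand and the others on the plus strand, and no sequences were compared. No source used here says how reads matching both copies were counted, so levels within these pairs and within the CKX6 pair carry that uncertainty.

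Library totals ran from 12546489 to 21279097 counts. One library did not resemble its group. Replicate 3 of TDZ at 4 weeks had Spearman correlations across genes of 0.803 to 0.807 with the other libraries of its group and of 0.944 to 0.947 with the 3 controls of that time. Results that rest on it are given with and without it. In 4 groups, control at 48 hours, BAR at both times and TDZ at 4 weeks, replicate 3 is named like replicate 1 with the letter b added, a letter whose meaning the labels do not give. No pair of replicates agreed within counting noise, with chi-square per degree of freedom of 7.87 to 268. Levels are CPM, counts scaled to library size and by the trimmed mean of M values (TMM), where 1 count was worth 0.042 to 0.086 CPM. Levels are compared between genes only as the deposited FPKM, fragments scaled to coding length and library size. Differences are log2 ratios from edgeR's quasi-likelihood test, called at a Benjamini-Hochberg adjusted p under 0.05 over all genes tested. Where libraries of groups are said not to overlap, this only describes the gene named. The share of all genes that separated in this way was not counted. Markers of the tissue moved between groups. The summed CPM of 12 phloem marker genes was 184 to 217 in control, 492 to 1018 in TDZ and 368 to 577 in BAR at 48 hours. At 4 weeks it was 8.82 to 16.5 in control, 60.9 to 66.1 in BAR, and 429, 193 and 20.0 in the TDZ replicates 1 to 3. Photosynthesis genes, 31 of 34 with counts, summed to 29010 to 50980 CPM in the libraries of 48 hours and to 4873 to 25850 in those of 4 weeks. The root list of 16 genes, 13 with counts, summed to 226 to 329 CPM. Its 10 genes named ROOT HAIR DEFECTIVE 3 held 2692 to 7098 counts in a library, while Casparian strip membrane protein 1 and WUSCHEL-related homeobox 5 had at most 15 and 20.

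**Figure D1:**
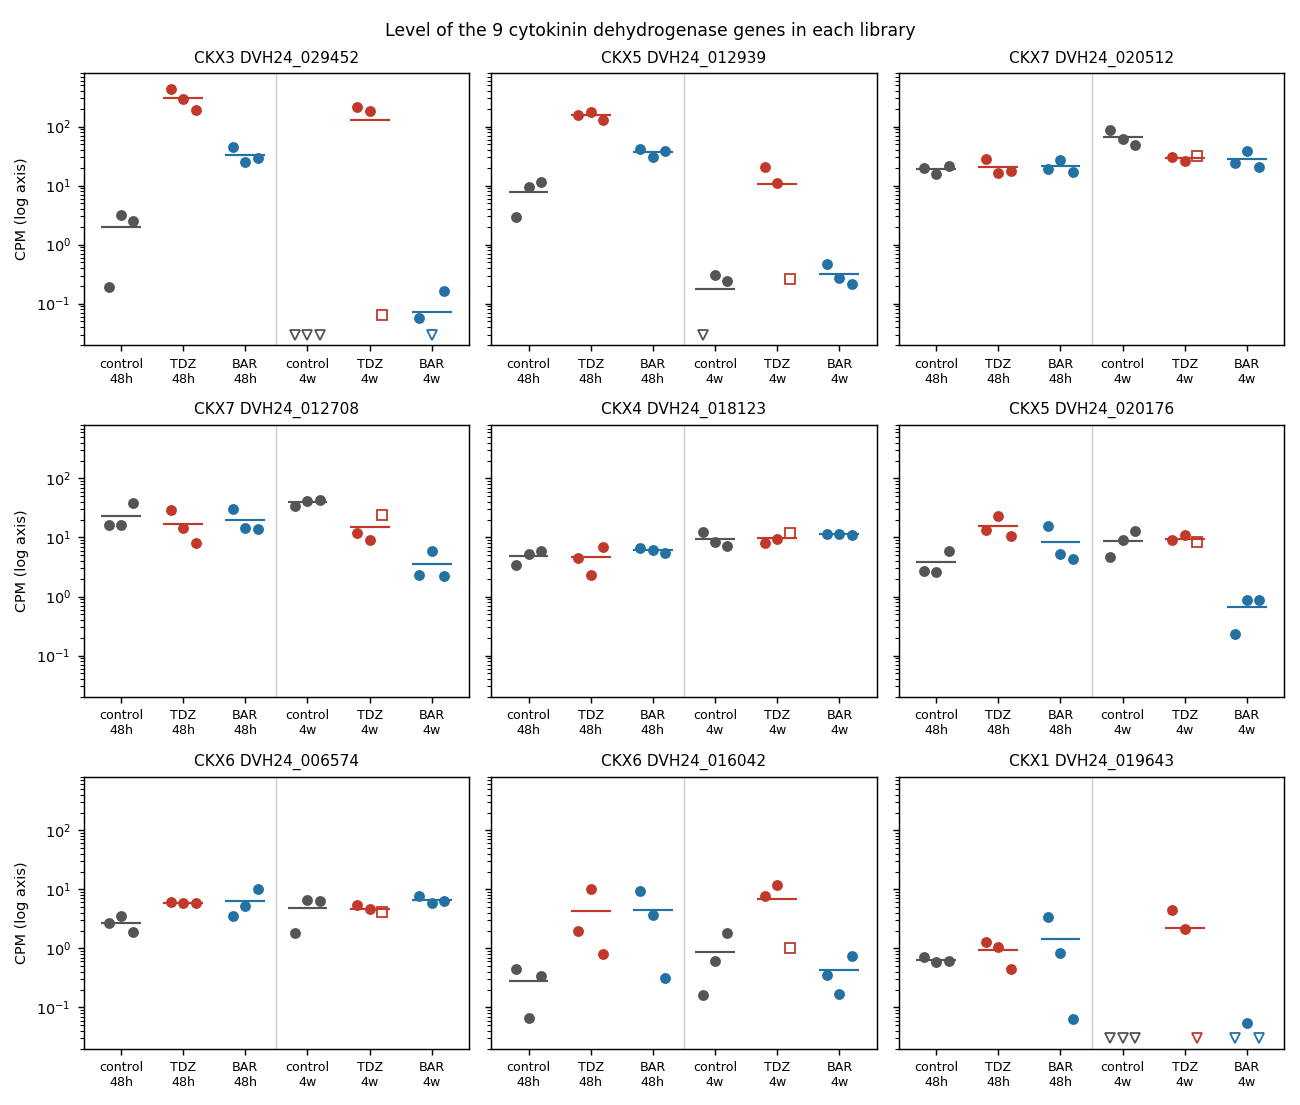
Level of each of the 9 cytokinin dehydrogenase genes in each library, in CPM on a log axis, by medium at 48 hours (left of the grey line) and 4 weeks (right). Circles are libraries in order of replicate, horizontal lines are group means over 3 libraries, the open square is TDZ at 4 weeks replicate 3, and triangles at the base are libraries with 0 counts. DVH24_029452 spans from 0 counts in the 4 week controls to 431 CPM in a TDZ library of 48 hours.

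Taken per kilobase of coding sequence, the family was most abundant on TDZ at 48 hours. The summed FPKM of the 9 members was 40.1 ± 12.6 in control, 330.1 ± 101 in TDZ and 88.2 ± 23.1 in BAR at 48 hours (SD, n = 3 each). At 4 weeks it was 81.0 ± 4.40 in control and 29.6 ± 6.45 in BAR (SD, n = 3 each). The TDZ libraries of 4 weeks gave 199, 172 and 48.6, the last being the replicate that resembled controls. The lowest TDZ library of 48 hours, at 223.5 FPKM, was above the highest BAR library, at 114.9. All 3 BAR libraries of 4 weeks, with a highest value of 36.9, lay below the lowest control at 76.7. Without the fused model DVH24_018123 the group means were between 25.6 and 328.4 in the same order.

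The make-up of the family also differed between groups. DVH24_029452 (CKX3) and DVH24_012939 (CKX5) together made up 14.7 ± 8.03% of family FPKM in control at 48 hours, 86.4 ± 0.722% in TDZ and 50.0 ± 5.24% in BAR (SD, n = 3 each). At 4 weeks this share was 0.142 ± 0.124% in control and 0.827 ± 0.354% in BAR. It was 74.3%, 71.4% and 0.397% in the 3 TDZ libraries. The pair named CKX7, a name that in Arabidopsis belongs to the cytosolic form, made up 66.9 ± 8.53% in control at 48 hours and 82.7 ± 6.19% in control at 4 weeks. In TDZ at 48 hours the CKX7 share was 7.18 ± 1.46%.

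**Figure D2:**
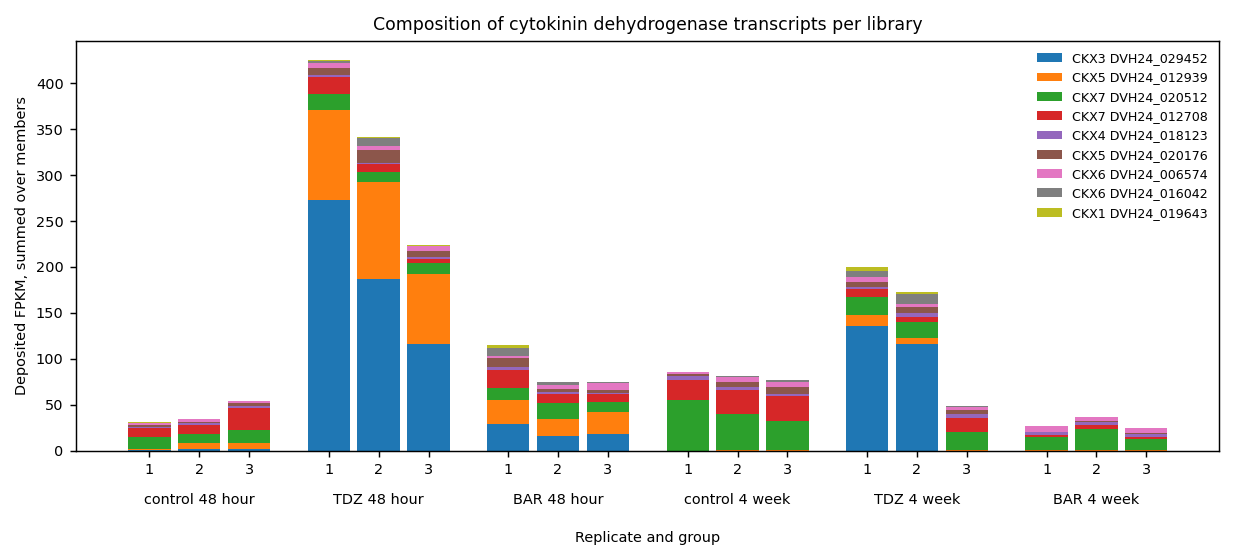
Deposited FPKM of the 9 members stacked for each of the 18 libraries, grouped by medium and time with the replicate number under each bar. The CKX3 and CKX5 genes DVH24_029452 and DVH24_012939 fill most of the 3 TDZ bars of 48 hours, at 86.4% on average, and the CKX7 genes fill most of the control bars of both times.

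The order of levels within each group was as follows. In control at 48 hours DVH24_012708 led with 14.8 ± 7.94 FPKM, followed by DVH24_020512 with 12.1 ± 1.96, and the libraries of these CKX7 genes overlapped. Both lay apart from the third gene, DVH24_012939, at 4.83 ± 2.69 FPKM, below which each gene overlapped its neighbour down to DVH24_019643. In TDZ at 48 hours DVH24_029452 came first with 192 ± 78.6 FPKM and DVH24_012939 second with 93.4 ± 15.5, apart from each other and from the CKX7 genes below them. In BAR at 48 hours DVH24_012939 had 22.7 ± 3.71 and DVH24_029452 21.2 ± 7.31 FPKM, and every gene overlapped the next in the order. In control at 4 weeks DVH24_020512 led with 42.1 ± 12.0 FPKM, apart from DVH24_012708 at 25.0 ± 3.43, which lay apart from DVH24_020176 at 5.42 ± 2.49. In BAR at 4 weeks DVH24_020512 led with 17.2 ± 5.75 FPKM, and DVH24_006574 came second with 5.26 ± 0.752. TDZ at 4 weeks had DVH24_029452 first at 136, 116 and 0.0397 FPKM in replicates 1 to 3, so that this gene overlapped DVH24_020512 at 18.8 ± 1.63.

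The first question was which members differed between media after 48 hours. DVH24_029452, the CKX3 gene, had 0.193, 3.23 and 2.55 CPM in the control libraries, 431, 298 and 189 in TDZ, and 45.1, 24.6 and 28.9 in BAR. The 3 groups did not overlap, with TDZ highest and control lowest. DVH24_012939, a CKX5 gene, had 2.97, 9.37 and 11.4 CPM in control, 159, 177 and 128 in TDZ, and 41.3, 30.3 and 38.3 in BAR. Its groups fell in the same order without overlap. Arabidopsis plants that lack both CKX3 and CKX5 are known for enlarged inflorescence meristems.

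In TDZ against control at 48 hours 2 of the 9 members rose and 0 fell, where 0.350% of 26014 genes tested were called in either direction and 0.177% as higher. DVH24_029452 rose 153-fold (log2 7.25 ± 0.64 SE, adjusted p = 0.00028, edgeR). DVH24_012939 rose 19.4-fold (log2 4.28 ± 0.39 SE, adjusted p = 0.00028, edgeR). The median log2 difference was 1.1 over the members and 0.002 over all genes tested. In BAR against control 1 member rose and 0 fell, where 0.0346% of genes were called, 0.0192% as higher. DVH24_029452 rose 16.5-fold (log2 4.05 ± 0.57 SE, adjusted p = 0.028). DVH24_012939 was higher in all 3 BAR libraries than in any control but was not called (log2 2.21 ± 0.36 SE, adjusted p = 0.077). The member median was 1.2 and that of all genes 0.0052. Both contrasts use the same 3 control libraries, and in bulk RNA fewer cells of a type cannot be told apart from less RNA per cell. The phloem marker sums given above were also lower in every control than in every treated library of 48 hours, with TDZ and BAR overlapping. The summed meristem markers were 39.9 to 84.7 CPM in control, 14.2 to 41.2 in TDZ and 19.2 to 101 in BAR at 48 hours. In TDZ against control 3 of 11 meristem genes tested were positive, with a list median of log2 -0.55 and 0 called. The part of these markers in the result was not tested.

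The calls at 48 hours depend on which libraries set the spread. In the fit of all 18 libraries none of the 26053 genes tested (0.00%) was called between media at 48 hours, and for DVH24_029452 and DVH24_012939 the adjusted p in TDZ against control became 0.37 and 0.26 with the same log2 differences. The common dispersion was 0.126 in the 48 hour libraries and 0.185 over all 18. Leaving out any 1 of the 9 libraries kept both TDZ calls. The BAR call on DVH24_029452 was lost without control replicate 1, 2 or 3, BAR replicate 1 or 2, or TDZ replicate 2, with adjusted p of 0.019 to 0.12 over the 9 fits, and with the replicate number as a block (adjusted p = 0.097).

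TDZ and BAR, a phenylurea and an N6-benzyladenine riboside given at the same concentration, were compared directly in all 9 members at each time, with p adjusted over all genes tested. At 48 hours 2 of the 9 members were higher in TDZ and 0 lower, where 0.111% of genes were called in either direction and 0.0423% as higher. DVH24_029452 was 9.23-fold higher in TDZ than in BAR (log2 3.21 ± 0.51 SE, adjusted p = 0.046). DVH24_012939 was 4.19-fold higher (log2 2.07 ± 0.35 SE, adjusted p = 0.046). Both calls were lost with the replicate number as a block, at adjusted p of 0.077 and 0.08. They were also lost in the fit of all 18 libraries (0.57 and 0.55), with the filter applied to the 9 libraries alone (0.053 for both), and without control replicate 2, BAR replicate 2 or 3, or TDZ replicate 1 or 2, while 1 of the 2 remained without BAR replicate 1 or TDZ replicate 3. The CKX7 gene DVH24_020512 differed by log2 -0.05, with a 95% interval of -0.63 to 0.54. Its partner DVH24_012708 differed by -0.21, with an interval of -1.22 to 0.80. The other 5 members were not called, and the widest of their intervals ran from -2.97 to 1.65 in DVH24_019643, so differences of several fold between the compounds remain possible there.

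**Figure D3:**
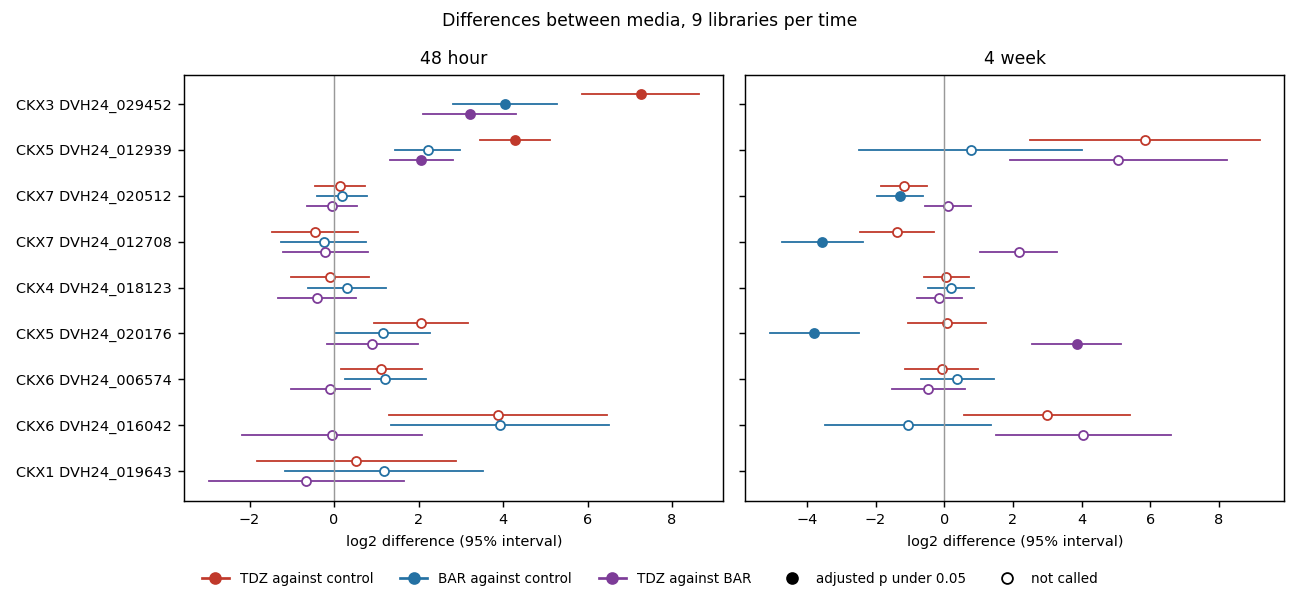
Log2 differences between media with 95% intervals for each member at 48 hours (left) and 4 weeks (right), for TDZ against control (red), BAR against control (blue) and TDZ against BAR (purple), each from the 9 libraries of that time. Filled points had an adjusted p under 0.05. DVH24_029452 and DVH24_019643 are left out at 4 weeks because all 3 controls had 0 counts. At 48 hours the filled points belong to DVH24_029452 and DVH24_012939, and at 4 weeks to DVH24_020512, DVH24_012708 and DVH24_020176.

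The other 7 members were not called at 48 hours in either medium against control. DVH24_020176, the CKX5 gene on the second sequence, had 2.71, 2.64 and 5.97 CPM in control and 13.4, 23.3 and 10.8 in TDZ. Its groups did not overlap (log2 2.06 ± 0.52 SE, adjusted p = 0.17). DVH24_006574 (CKX6) had 2.64, 3.56 and 1.88 CPM in control and 6.19, 5.80 and 5.75 in TDZ, again without overlap (log2 1.12 ± 0.45 SE, adjusted p = 0.49). DVH24_016042, the other CKX6 gene, varied within treated groups, with 1.98, 10.2 and 0.798 CPM in TDZ and 9.24, 3.68 and 0.316 in BAR. Its controls were at 0.451, 0.066 and 0.335 CPM, so BAR replicate 3 fell among them. DVH24_020512, DVH24_012708 and DVH24_018123 overlapped between all 3 media, with 15.4 to 28.3, 8.03 to 37.7 and 2.32 to 7.01 CPM over the 9 libraries. DVH24_019643 (CKX1) stayed between 0.063 and 3.43 CPM.

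After 4 weeks on BAR, the members that were called were all lower than in control. DVH24_020512 (CKX7) had 87.3, 60.6 and 48.9 CPM in control and 24.4, 38.7 and 21.1 in BAR. Its partner DVH24_012708 had 33.6, 41.1 and 42.7 CPM in control and 2.27, 5.94 and 2.26 in BAR. DVH24_020176 (CKX5) had 4.75, 8.91 and 12.7 CPM in control and 0.233, 0.888 and 0.859 in BAR. In each of these 3 genes every BAR library lay below every control, though the share of all genes that separated in this way was not counted.

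In BAR against control at 4 weeks 3 of the 9 members were lower and 0 higher. Of 26050 genes tested 16.6% were called, 8.11% as lower. DVH24_020512 was lower in BAR than in control by 1.30 ± 0.30 SE on the log2 scale (adjusted p = 0.027, edgeR). Between 48 hours and 4 weeks this gene was not called on BAR (log2 0.40 ± 0.29 SE, adjusted p = 0.35, edgeR). In control it rose over that time (log2 1.80 ± 0.30 SE, adjusted p = 0.00075). DVH24_012708 fell by 3.55 ± 0.52 SE on the log2 scale (adjusted p = 0.011), and DVH24_020176 fell by 3.78 ± 0.57 SE (adjusted p = 0.012). The member median was log2 0.20, with 5 of the 9 differences above 0, and that of all genes was 0.07. DVH24_029452 was at 1, 0 and 3 counts in the BAR libraries and at 0 counts in all 3 controls, and DVH24_012939 was at 0.215 to 0.466 CPM in BAR. DVH24_020512 was not called when the libraries named with b were summed with their namesakes (log2 -1.16, adjusted p = 0.053). The same 3 genes were called in the fit of all 18 libraries, where 29.9% of genes were called. None of the 3 was called without control replicate 2 or 3, or BAR replicate 1 or 3, where the adjusted p reached 0.11, 0.067 and 0.062 in the order above. Over all 9 such fits their log2 differences were -1.61 to -1.04, -4.18 to -3.32 and -4.08 to -3.39. The summed phloem markers were higher in these BAR libraries than in the controls, by the ranges given above, and the meristem markers were 13.8 to 16.4 CPM against 6.49 to 10.6. The summed xylem markers, 21 of 30 with counts, were 412, 1757 and 1650 CPM in control and 367 to 400.4 in BAR. Most single xylem genes went the other way, with 17 of 20 tested positive in BAR against control and a list median of log2 2. The part of these markers in the result was not tested.

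After 4 weeks on TDZ, replicates 1 and 2 carried high levels of the CKX3 gene and replicate 3 did not. DVH24_029452 had 0, 0 and 0 counts in control and 4679, 4334 and 1 counts in TDZ, or 211, 182 and 0.064 CPM. DVH24_012939 had 0, 0.303 and 0.238 CPM in control and 20.6, 11.0 and 0.257 in TDZ. DVH24_016042 (CKX6) had 0.164, 0.606 and 1.83 CPM in control and 7.73, 12.0 and 1.03 in TDZ. DVH24_019643 (CKX1) had 0 counts in all 3 controls and 100, 51 and 0 counts in TDZ. In all 4 genes replicate 3 lay inside the control range or within 1 count of it. The CKX7 genes were lower in TDZ than in control in every library, a separation not counted over all genes. DVH24_020512 had 30.2, 26.1 and 31.7 CPM in TDZ, and DVH24_012708 had 12.0, 9.15 and 24.5.

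With all 9 libraries of 4 weeks, 0 of the 9 members were called in TDZ against control by edgeR, where 5.60% of genes were called in either direction. Of the 9, 6 had an unadjusted p under 0.05, as did 34.8% of all genes. DESeq2 called 6 members and 28.4% of genes, and limma-voom 0 members and 1.52% of genes. Without TDZ replicate 3, edgeR called 4 higher and 2 lower, where 41.5% of 26049 genes tested were called. The fit of all 18 libraries called 3 higher and 1 lower, where 26.6% of genes were called. In pooled counts DVH24_029452 was at least 2320-fold higher in TDZ, taking 3 counts over the control group as the floor. Its adjusted p was 0.053 with replicate 3 and 0.00017 without it. DVH24_012939 differed by log2 5.84 ± 1.48 SE (adjusted p = 0.052) with replicate 3 and rose by 6.43 without it (adjusted p = 0.00083). DVH24_016042 differed by 2.99 ± 1.07 SE (adjusted p = 0.089) with it and rose by 3.52 without it (adjusted p = 0.012). DVH24_019643 was at least 38.8-fold higher in pooled counts, at adjusted p of 0.068 with and 0.003 without replicate 3. DVH24_020512 differed by log2 -1.18 ± 0.30 SE (adjusted p = 0.052) with it and was lower by 1.25 without it (adjusted p = 0.018). DVH24_012708 differed by -1.38 ± 0.48 SE (adjusted p = 0.083) with it and was lower by 1.92 without it (adjusted p = 0.0097). The bounds of 2320 and 38.8 use all 3 TDZ libraries. The summed CPM of 18 shoot meristem markers, 16 with counts, was 83.0, 112 and 8.17 in the TDZ replicates 1 to 3 and 6.49 to 10.6 in the controls, and the part of these markers in the result was not tested.

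Between the 2 compounds at 4 weeks, 1 of the 9 members was higher in TDZ and 0 lower, where 0.518% of genes were called, 0.196% as higher. This was DVH24_020176 (CKX5), with 9.04, 10.8 and 8.30 CPM in TDZ, 14.5-fold above BAR (log2 3.86 ± 0.57 SE, adjusted p = 0.039). All 3 TDZ libraries were within the range of the controls and all 3 BAR libraries were below it. The call was lost with the replicate number as a block (adjusted p = 0.1), and without control replicate 2 or 3, BAR replicate 1, 2 or 3, or TDZ replicate 1 or 2. Without TDZ replicate 3, 6 members were called higher in TDZ and 0 lower, where 12.1% of genes were called. In the fit of all 18 libraries 5 were higher and 0 lower, where 8.40% of genes were called. The 6 were DVH24_029452, DVH24_012939, DVH24_012708, DVH24_020176, DVH24_016042 and DVH24_019643, with log2 differences from 1.63 in DVH24_012708 to 11.3 in DVH24_029452. DVH24_020512 (CKX7), lower than control on both compounds in every library, differed between them by log2 0.11 with a 95% interval of -0.55 to 0.78. DVH24_018123 differed by -0.14 (-0.81 to 0.52) and DVH24_006574 by -0.46 (-1.52 to 0.59).

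Levels of single members were also compared between the 2 times on the same medium, over all 18 libraries. Many genes of the table were called over time, and the counts of members in control and TDZ were near the shares of all genes. In control 1 member rose and 3 fell, where 36.7% of 26053 genes were called in either direction, 15.7% as higher and 21.0% as lower. DVH24_020512 (CKX7) went from 19.8, 15.4 and 21.3 CPM at 48 hours to 87.3, 60.6 and 48.9 at 4 weeks, a rise of log2 1.80 ± 0.30 SE (adjusted p = 0.00075). DVH24_012939 (CKX5) fell by 5.47 ± 1.12 SE on the log2 scale (adjusted p = 0.0021). DVH24_029452 (CKX3) went from 90 counts over the group to 0, at least 31.2-fold lower (adjusted p = 0.049). DVH24_019643 (CKX1) went from 29 counts to 0, at least 10.1-fold lower (adjusted p = 0.032). The DVH24_029452 call was lost with the replicate number as a block (adjusted p = 0.062), with RLE scaling (0.051) and with limma-voom (0.65). The count of 4 became 2 without control replicate 2 or 3 of either time, and 1 with limma-voom, where DVH24_020512 alone was called. It was 3 without any of the other libraries, except for TDZ replicate 2 or 3 of 48 hours, control replicate 1 of 4 weeks (4 each) and TDZ replicate 3 of 4 weeks (5). Marker genes also fell between these times in control, 23 of 31 photosynthesis, 11 of 12 phloem, 11 of 20 xylem and 8 of 11 meristem genes tested, and their part in the result was not tested. The summed xylem markers went the other way, from 333 to 355 CPM at 48 hours to 412 to 1757 CPM at 4 weeks.

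In BAR 5 members fell between 48 hours and 4 weeks and 0 rose, where 21.2% of genes were called, 11.2% as lower. DVH24_029452 fell by 8.66 ± 1.90 SE on the log2 scale (adjusted p = 0.0062), and DVH24_012939 fell by 6.82 ± 1.06 (adjusted p = 0.00063). DVH24_012708 fell by 2.48 ± 0.56 (adjusted p = 0.0061) and DVH24_020176 fell by 3.64 ± 0.63 (adjusted p = 0.0012). DVH24_019643 fell from 81 counts over the group to 1 (adjusted p = 0.034), a ratio of 82.2 between the times with a counting interval of 14.3 to 3290 at 95%. Of the 81 counts 65 came from replicate 1, without which the log2 difference of DVH24_019643 was -4.13 and the call was lost (adjusted p = 0.15). In DVH24_029452, DVH24_012939, DVH24_012708 and DVH24_020176 every library of 4 weeks lay below every library of 48 hours, a separation not counted over all genes. In DVH24_019643 replicate 3 of 48 hours and replicate 2 of 4 weeks both had 1 count. Limma-voom did not call DVH24_029452 or DVH24_019643 (adjusted p = 0.38 and 0.16), and DVH24_019643 was not called without BAR replicate 1 of 48 hours or any 1 BAR library of 4 weeks. In BAR 21 of 31 photosynthesis, 7 of 12 phloem and 4 of 11 meristem markers fell over the same time, and their part in the result was not tested. In TDZ 1 member rose and 1 fell, where 20.1% of genes were called, 11.0% as higher and 9.05% as lower. DVH24_012939 fell by 3.86 ± 0.85 SE on the log2 scale (adjusted p = 0.0058), and by 3.29 without replicate 3 of 4 weeks (adjusted p = 0.00062). DVH24_018123, the fused CKX4 model, rose by log2 1.09 ± 0.37 SE (adjusted p = 0.047). That call held without control replicate 1 of either time or TDZ replicate 3 of 48 hours, and was lost without any other single library, with adjusted p of up to 0.16. It was lost without replicate 3 of 4 weeks (adjusted p = 0.12, with 17.9% of genes called) and with the replicate number as a block (0.056). Of the photosynthesis markers 28 of 31 fell in TDZ, and their part in the result was not tested. DVH24_029452 was not called over time in TDZ (log2 -1.22 ± 1.17 SE, adjusted p = 0.49), and at -0.64 without replicate 3 was not called either (adjusted p = 0.47).

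Whether a medium's difference from control itself changed between the times was tested as an interaction. For BAR 3 members were called, all negative, where 11.4% of genes were called and 4.69% as negative. DVH24_020176 gave log2 -4.86 ± 0.83 SE (adjusted p = 0.0066), DVH24_012708 -3.23 ± 0.77 (adjusted p = 0.019) and DVH24_020512 -1.40 ± 0.41 (adjusted p = 0.04). For DVH24_020176 the BAR difference was positive at 48 hours, at 1.16 ± 0.51 and not called, and negative at 4 weeks. The count fell to 1 without control replicate 1 or BAR replicate 1 of 48 hours, or BAR replicate 1 or 3 of 4 weeks. It fell to 2 without control replicate 2 or 3 or BAR replicate 2 of 48 hours, or control replicate 2 of 4 weeks, and DVH24_020512 was not called with the replicate number as a block (adjusted p = 0.053) or with the b libraries summed with their namesakes (0.085). For TDZ 0 members were called by edgeR, where 7.58% of genes were called. Of the 9, 3 had an unadjusted p under 0.05, as did 26.9% of all genes. DESeq2 called 2 members and 16.3% of genes, and limma-voom 0 members and 0.276% of genes. Without replicate 3 of TDZ at 4 weeks edgeR called 3, where 27.3% of genes were called, among them DVH24_020512 at log2 -1.37 (adjusted p = 0.029).

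The copies of the same name did not keep a fixed ratio. The FPKM of DVH24_012939 divided by that of its CKX5 partner DVH24_020176 was 1.10, 3.55 and 1.91 in the control libraries of 48 hours. It was 11.9, 7.60 and 11.9 in TDZ and 2.66, 5.81 and 8.78 in BAR at that time. At 4 weeks it was 0, 0.034 and 0.0187 in control, 2.27, 1.02 and 0.031 in TDZ, and 2.00, 0.312 and 0.25 in BAR. DVH24_012939 was thus the higher copy in all 9 libraries of 48 hours and the lower copy in all 3 controls of 4 weeks. The ratio of DVH24_020512 to its CKX7 partner DVH24_012708 was 0.568 to 2.24 over the 9 libraries of 48 hours. It was 1.15 to 2.62 in control and 6.56 to 10.8 in BAR at 4 weeks, without overlap between those groups, and 2.53, 2.88 and 1.31 in TDZ, which overlapped control. In the CKX6 pair the ratio of DVH24_006574 to DVH24_016042 was 5.35 to 51.6 in control, 0.543 to 6.89 in TDZ and 0.36 to 30.6 in BAR at 48 hours. At 4 weeks it was 3.32 to 10.5 in control, 0.367 to 3.76 in TDZ and 8.12 to 33.7 in BAR. These ratios are given as a description, with no test.

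**Figure D4:**
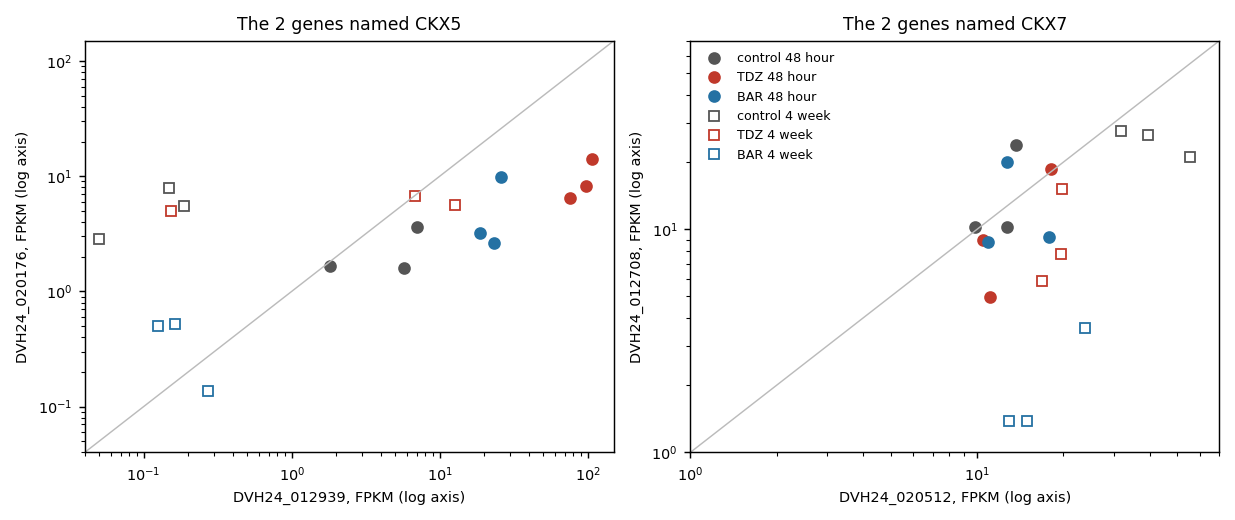
Deposited FPKM of one copy against the other in each library, on log axes, for the CKX5 pair (left) and the CKX7 pair (right), with a grey line where both copies are equal. Filled circles are 48 hours and open squares 4 weeks, coloured by medium, and a library with 0 counts on the x axis (control at 4 weeks replicate 1, left) is drawn at 0.05. The 3 BAR libraries of 4 weeks lie below the others on the y axis of both panels, with ratios of 6.56 to 10.8 between the CKX7 copies.

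The genes whose pattern was most like that of the leading members were found from Pearson's r of log2 CPM over the 18 libraries, which share group differences, and are given with no p. For DVH24_029452 they were the type-A response regulator ORR4 (DVH24_042790, r = 0.965), cytochrome P450 724B1 (DVH24_028002, 0.956), ARR3 (DVH24_007079, 0.946), glutaredoxin-C3 (DVH24_037444, 0.937) and ARR17 (DVH24_024436, 0.933). For DVH24_012939 they were cytochrome P450 78A9 (DVH24_039983, 0.969), (R)-mandelonitrile lyase 3 (DVH24_002314, 0.967), glutaredoxin-C3 (0.967), ARR17 (0.964) and cytochrome P450 724B1 (0.962). DVH24_029452 and DVH24_012939 had r = 0.935 with each other. For DVH24_020512 the closest were a putative polyol transporter 1 (DVH24_034924, 0.897), NADP-dependent malic enzyme (DVH24_018017, 0.893), the E3 ligase At1g12760 (DVH24_017297, 0.884), a pentatricopeptide repeat protein At5g48910 (DVH24_005686, 0.884) and 1-aminocyclopropane-1-carboxylate oxidase homolog 1 (DVH24_007593, 0.881). ORR4, the closest to DVH24_029452, had 0.878 ± 0.0766 CPM in control, 13.1 ± 1.77 in TDZ and 8.01 ± 1.82 in BAR at 48 hours (SD, n = 3 each).

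The other genes of the cytokinin pathway were counted in lists by protein name. At 48 hours 0.350% of 26014 genes tested were called in TDZ against control. The calls in these lists were in the type-A, receptor and phosphotransfer lists. Of 10 tested type-A response regulators, early targets that dampen the signal, 6 rose and 0 fell, with a list median of log2 1.9. ARR17 (DVH24_024436) rose by 3.69 ± 0.27 SE (adjusted p = 9.1e-05) and ORR4 (DVH24_042790) by 3.87 ± 0.36 (adjusted p = 0.00028). Of 6 receptor genes 2 rose, both named histidine kinase 4, DVH24_040279 by 1.72 ± 0.30 (adjusted p = 0.033) and DVH24_007629 by 1.12 ± 0.19 (adjusted p = 0.028). Of 4 phosphotransfer genes, which carry phosphate from receptor to regulator, 1 rose, DVH24_015255 by 1.57 ± 0.24 (adjusted p = 0.015). The 12 genes counted as type-B regulators include APRR2 (DVH24_015551), which is named response regulator-like. None of them was called, and neither was any of 4 cytokinin response factors or 13 transporters. Nor was any of 11 LOG activating enzymes, 4 conjugating enzymes, 1 tRNA isopentenyltransferase or 1 cytokinin hydroxylase. In BAR at 48 hours, where 0.0346% of genes were called, 2 type-A regulators rose. These were ORR4 by 3.19 ± 0.35 (adjusted p = 0.0077) and ARR17 by 1.86 ± 0.26 (adjusted p = 0.028), and none of the other lists had a call. In TDZ against BAR, where 0.111% of genes were called, 1 type-A regulator was higher and no other list had a call.

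At 4 weeks with all 9 libraries, where 5.60% of genes were called, 3 type-A regulators and 2 receptors rose in TDZ against control. Of the type-B list 1 gene rose, the regulator-like APRR2 (DVH24_015551), by 0.96 ± 0.22 SE on the log2 scale (adjusted p = 0.048). Of the transporters 1 fell, equilibrative nucleotide transporter 1 (DVH24_007032), by 1.26 ± 0.28 SE on the log2 scale (adjusted p = 0.048). In BAR against control, where 16.6% of genes were called, 4 of 11 LOG genes, which release active cytokinin from its nucleotide, rose together with the tRNA isopentenyltransferase, 1 receptor, 2 type-B regulators and 1 transporter. A phosphotransfer gene, a cytokinin response factor and another transporter fell, and 0 of 10 type-A regulators was called. In TDZ against BAR, where 0.518% of genes were called, no gene of these lists was called. Without replicate 3 of TDZ, where 41.5% of genes were called in TDZ against control, 9 of 10 type-A regulators rose and 0 fell. The other lists were nearer that share, with 3 of 6 receptors higher, and 5 higher and 1 lower of 11 LOG genes. Of 13 transporters 5 rose and 3 fell, of 12 type-B regulators 3 rose and 1 fell, and of 4 phosphotransfer genes 2 rose and 1 fell. Of 4 conjugating enzymes and 4 cytokinin response factors 1 each fell. The same fit called 9 type-A regulators, 2 receptors, 2 phosphotransfer genes, 1 LOG gene and 1 transporter higher in TDZ than in BAR, and 1 type-B regulator and 1 transporter lower, where 12.1% of genes were called.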

How the data were processed

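The authors deposited 1 table of read counts per gene with FPKM values beside them. Per the submitters' processing notes the tools were CASAVA, HISAT2 2.0.5 and featureCounts 1.5.0-p3. Neither the genome build nor how strand was handled is given in the sources used here. The deposited FPKM values equal counts scaled to coding length and library total, times 1 constant per library (0.7815 to 1.167) that no source describes. Of 42841 genes, 27453 carry a Swiss-Prot name. None of the gene identifiers matched the reference gene table, so no sequence is shown.

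Counts were tested with edgeR 4.0.16 in R 4.3.3 (glmQLFit, glmQLFTest, TMM scaling), 1 mean per group, on the 9 libraries of a time for media and on all 18 for times and interactions. filterByExpr (minimum count 10, minimum total 15) on all 18 libraries left 26053 genes, and genes with no count in a fit were dropped. That filter was chosen after the table was seen: on the 9 libraries of 4 weeks alone it leaves 6 of the 9 members. Those it drops there are DVH24_029452, DVH24_012939 and DVH24_019643. The members, the gene lists and the fits by time were chosen with earlier results of these data known. SE is the log2 difference divided by the root of F, and intervals are 95%. Where a group had 0 counts, a bound against 3 counts over the group is given. DESeq2 1.42.0, limma-voom (limma 3.58.1), RLE scaling, no filter, a replicate block, the b libraries summed with their namesakes, and leaving out each library were alternatives. The steps were tested on simulated counts with a single dispersion near that of the 48 hour libraries (0.126) and no unlike library. The common dispersion was 0.239 at 4 weeks and 0.185 over all 18 libraries, so the simulation does not cover the spread of those fits.

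All members and, from each pathway list, up to 2 genes with the smallest p in TDZ against control were to be named, and the 5 genes closest to each of 3 members. Library totals of 12546489 to 21279097 counts set the precision. Bounds cover counting error only. With 3 libraries against 3, an exact permutation test of a single gene cannot go below p = 0.1, so none is given. Replicate numbers were not treated as pairs in the main fits. Of 18 correlations between deviations of same-numbered libraries 3 were above 0.1, which cannot show whether samples were paired. The replicate block is therefore given as an alternative.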

Additional observations from a re-analysis of the deposited data

Results flagged for a closer look

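The BAR difference from control changed between 48 hours and 4 weeks in 3 members, by the interaction test of edgeR over all 18 libraries. DVH24_020512 (CKX7) gave log2 -1.40 (adjusted p = 0.04), with BAR and control libraries overlapping at 48 hours and every BAR library lower at 4 weeks. Between the times this gene rose in control (log2 1.80 ± 0.30 SE, adjusted p = 0.00075) and was not called on BAR (log2 0.40 ± 0.29 SE, adjusted p = 0.35). Its interaction was not called with the replicate number as a block (adjusted p = 0.053) or with the b libraries summed with their namesakes (0.085). DVH24_012708 (CKX7) gave log2 -3.23 (adjusted p = 0.019), again with overlap at 48 hours and every BAR library lower at 4 weeks. DVH24_020176 (CKX5) gave log2 -4.86 (adjusted p = 0.0066), with BAR at 15.5, 5.21 and 4.36 CPM at 48 hours and 0.233, 0.888 and 0.859 at 4 weeks. No group has 4 or more libraries, so single libraries were not tested for standing apart.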

How the results depend on the processing

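The 40 differences of members followed through all alternatives were chosen because they were called in at least 1 of 3 fits. These were the main fit, the fit of all 18 libraries and the fit without TDZ replicate 3 of 4 weeks. Of the 40, 0 changed sign, which this choice makes likely. The last 2 of these fits are also counted among the alternatives, so part of the calls gained follows from the choice. Without any library left out, 215 values kept their side of the threshold, 32 gained a call and 27 lost one, and 428, 21 and 91 did so when 1 library was left out. Counts of members called moved as follows. Fitting all 18 libraries gave 0 in TDZ against control, BAR against control and TDZ against BAR at 48 hours, and at 4 weeks 4 in TDZ against control and 5 in TDZ against BAR. DESeq2 gave 4 in TDZ and 2 in BAR against control at 48 hours, 6 in TDZ against control and 5 in TDZ against BAR at 4 weeks, and 2 in the TDZ interaction. DESeq2 also called more of all genes, in the same order 1.58%, 0.292%, 28.4%, 10.4% and 16.3%. Limma-voom gave 0 in BAR against control at 48 hours, 0 in TDZ against BAR at 4 weeks, 1 in control and 3 in BAR over time, with 0.0154%, 0.568%, 32.1% and 22.7% of all genes called. RLE scaling gave 1 in TDZ against control at 4 weeks. No filter gave 2 in BAR against control at 48 hours and 1 in TDZ over time. The filter on 9 libraries, an alternative chosen after seeing the data, gave 0 in TDZ against BAR at 48 hours. Summing the b libraries with their namesakes gave 2 in BAR against control at 48 hours, 6 in TDZ against control and 0 in TDZ against BAR at 4 weeks, 1 in TDZ over time and 2 in the TDZ interaction. It also gave 2 in BAR against control at 4 weeks and 2 in the BAR interaction, where DVH24_020512 was lost. The cause of these moves was not tested. The share of all genes called is not given for RLE scaling, no filter, the filter on 9 libraries or the b sums. It is also not given for the replicate block or for leaving out a library other than TDZ replicate 3 of 4 weeks. Counts of members under those settings therefore cannot be set against all genes.

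With the replicate number as a block, the counts became 0 in BAR against control and TDZ against BAR at 48 hours, 0 in TDZ against BAR at 4 weeks and 1 in TDZ over time, and otherwise stayed within 1.5 times, though DVH24_029452 in control over time (adjusted p = 0.062) and DVH24_020512 in the BAR interaction (0.053) were lost. Correlations between deviations of same-numbered libraries ran from -0.221 to 0.296, and differently numbered pairs reached values such as 0.263 and -0.283. Whether same-numbered samples shared a culture or batch cannot be told from these values. Leaving out 1 library gave 2 in TDZ against control, 0 to 1 in BAR against control and 0 to 2 in TDZ against BAR at 48 hours. It gave 0 to 6, 0 to 3 and 0 to 6 in the same order at 4 weeks, 2 to 5 in control, 1 to 2 in TDZ and 4 to 6 in BAR over time, and 0 to 3 and 1 to 4 in the TDZ and BAR interactions. At 1 to 3 counts a library, as in DVH24_029452 on BAR at 4 weeks, depth limits what can be said.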
